A study of Mus musculus with 7 samples.

Results

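The Th17-type intraepithelial lymphocytes (IEL) of the small intestine described here were selected on their cytokine transcripts. They were IEL with a productive T cell receptor beta (TRB) chain, 2 or more unique molecular identifiers (UMIs, each standing for 1 captured transcript) of *Il17a* and *Il22* together, and 0 UMIs of *Trdc*, *Cd8b1* and *Foxp3*. By this rule 154 cells were found among 10159 IEL, of which 6346 carried a TRB chain: 90 cells in young and 64 in old IEL. The levels of *Il17a* and *Il22* chose these cells and are given below only as a description. T cells had been collected from the small-intestinal epithelium and the spleen (SP) of C57BL/6 mice at 6 weeks (young) and 80 weeks (old), with no genetic modification or treatment named in the labels. Cells of 3 mice per age were pooled into 1 sample for each tissue and age, and for IEL the sort mixed all CD3+ cells with CD3+CD4+ cells in equal parts. A legend of the study gives another number of young mice than its methods do. Each group was therefore 1 pool without replicates, no test between groups was possible, and differences between mice cannot be told apart from differences between ages.

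Th17 cells are CD4+ helper T cells defined by the cytokines they secrete. They depend on interleukin 23 for their maintenance and secrete IL-17A, IL-17F and IL-22. In the gut these cytokines act on the epithelium, where they promote antimicrobial peptides, recruitment of neutrophils and repair of the barrier. γδ T cells and innate lymphoid cells make the same cytokines, which is why a TRB chain was required and cells with *Trdc*, the constant region of the δ chain, were left out. *Cd8b1* marks conventional CD8+ T cells and *Foxp3* marks regulatory T cells.

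The T cell receptors of the largest clonotypes are shown first, because the spread of the Th17-type cells over them is given by age below. A clonotype was the set of productive TRB chains of a cell, with their V and J genes and the nucleotides of complementarity-determining region 3 (CDR3), the loop that meets the antigen. The sequences run 5′ to 3′ as deposited. Capitals mark the bases that matched neither the germline V gene nor the germline J gene of GRCm38. They lie between the V and J parts, which in TRB chains includes the D segment, whereas TRA chains have none. The largest old clonotype joined TRBV2 to TRBJ1-6 and TRAV13D-2 to TRAJ58, and the next carried the TRB chains TRBV17 with TRBJ1-4 and TRBV5 with TRBJ1-5 beside TRAV6-5 with TRAJ17. The last 4 lines below come from young mice.
Old clonotype 1 TRA (TRAV13D-2): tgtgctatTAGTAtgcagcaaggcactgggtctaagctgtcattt
Old clonotype 2 TRB (TRBV17): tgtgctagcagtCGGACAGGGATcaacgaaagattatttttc
Old clonotype 2 TRB (TRBV5): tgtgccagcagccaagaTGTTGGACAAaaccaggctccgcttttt
Old clonotype 2 TRA (TRAV6-5): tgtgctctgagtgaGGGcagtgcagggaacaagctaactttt
Old clonotype 3 TRB (TRBV31): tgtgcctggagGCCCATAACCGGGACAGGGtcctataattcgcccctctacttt
Old clonotype 3 TRA (TRAV12D-2): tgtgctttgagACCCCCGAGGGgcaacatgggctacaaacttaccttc
Old clonotype 3 TRA (TRAV8D-2): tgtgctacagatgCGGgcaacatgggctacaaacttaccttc
Young clonotype 1 TRB (TRBV19): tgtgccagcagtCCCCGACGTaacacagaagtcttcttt
Young clonotype 1 TRA (TRAV13-1): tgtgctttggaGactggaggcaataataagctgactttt
Young clonotype 11 TRB (TRBV31): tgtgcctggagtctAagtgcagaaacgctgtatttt
Young clonotype 11 TRA (TRAV8D-1): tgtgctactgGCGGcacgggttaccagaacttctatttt

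Old clonotype 1 held 15 of the 64 old Th17-type cells, old clonotype 2 held 12 and old clonotype 3 held 5. The largest young clonotype, young clonotype 1, held 3 of 90 cells, and no other held more than 2. *Trbv2* lies on chromosome 6 from 41047340 to 41047995 and *Trbv17* from 41163062 to 41163556 (GRCm38), within the TRB locus, and *Trav13d-2* lies on chromosome 14 from 52942764 to 52943289. The TRB junction of young clonotype 11 held 1 unmatched base and its TRA junction 4, whereas the TRB junction of old clonotype 3 held 19.

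The pools held 4348 cells of young IEL with a median of 6531 UMIs per cell and 5811 cells of old IEL with a median of 5324. In SP there were 5668 young cells with a median of 5689 UMIs and 5538 old cells with a median of 6533.5, and none of the 21365 barcodes recurred in another pool. The Th17-type cells themselves had medians of 6035.5 UMIs in young IEL and 5320 in old IEL. All 95% intervals below are exact, Clopper-Pearson for shares of cells and Poisson for levels, and cover counting error only, not the spread between mice. For a share of 0 cells the upper limit was instead taken as 3 cells over the number of cells.

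Th17-type cells made up 3.26% of the young IEL with a TRB chain (90 of 2760, 95% interval 2.63 to 3.99) and 1.78% of the old (64 of 3586, 1.38 to 2.27). When every cell was thinned at random to 2000 UMIs, to remove the difference in depth, the shares were 2.72% and 1.49%. The gap followed the denominator. Of the cells with a TRB chain and a *Cd4* UMI, they were 6.43% in young and 2.54% in old IEL, whereas of the CD4+ IEL without *Cd8a* that passed the same gate on *Trdc*, *Cd8b1* and *Foxp3* they were 10.8% (70 of 647, 8.53 to 13.5) and 9.26% (39 of 421, 6.67 to 12.4). Within that compartment the intervals of the ages overlapped. A single clonotype, TRBV2 with TRBJ1-6, took up 22.6% of the old IEL with a TRB chain and a like share, 23.4%, of the old Th17-type cells. The share of CD4+ cells in these pools was set in part by the sort. The cause of the gap between the ages was not tested.

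In the spleen the same rule found 3 of 5182 young and 2 of 4783 old cells with a TRB chain. Cells that should lack both cytokines gave a background share. The source of their cytokine UMIs, such as free RNA, was not tested. Among SP cells with *Ccr7* and *Lef1*, markers of naive T cells, 2 or more UMIs were found in 2 of 3782 young cells (median depth 5844 UMIs) and in 0 of 2613 old cells (median 7128), which allows a share of up to 0.115%. Among IEL with *Cd8b1* they were found in 2 of 461 young cells (0.434%, median 6871 UMIs) and 5 of 369 old cells (1.36%, median 5586). In naive-like young IEL they were found in 2 of 252 cells (0.794%, median 5649.5 UMIs). The shares of Th17-type cells lay above these values, though for old IEL the intervals of 1.78% and 1.36% overlapped (0.441 to 3.13 for the latter), as did those of 3.26% and 0.794% in young IEL (0.0963 to 2.84 for the latter). The plot of cytokine UMIs per cell shows why most of these cells did not depend on the exact threshold.

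**Figure D1:**
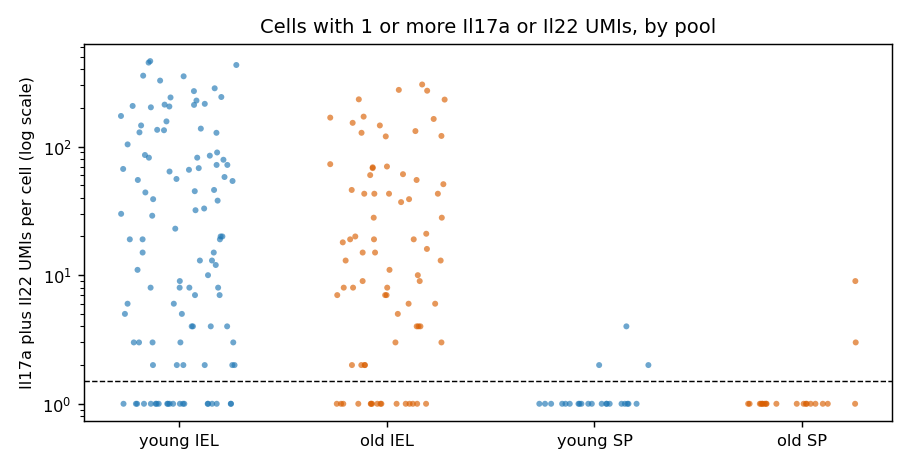
Each point is a cell with a TRB chain, 0 UMIs of Trdc, Cd8b1 and Foxp3, and 1 or more UMIs of Il17a and Il22, placed by its pool (x axis) and its summed Il17a and Il22 UMIs (y axis, log scale). The dashed line separates cells with 1 UMI from the 90 young and 64 old Th17-type IEL above it, of which 64 and 44 had 10 or more UMIs.

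Cells near the threshold were few. In young IEL, 21 gated cells had 1 UMI, 6 had exactly 2, 5 had 3, 15 had 4 to 9 and 64 had 10 or more. In old IEL the corresponding numbers were 16, 4, 2, 14 and 44. With 1 cytokine UMI, *Tmem176b*, a marker described below, was detected in 6 of 21 young cells and in 5 of 16 old ones, against 4 of 6 and 3 of 4 cells with 2 UMIs, and 55 of 84 and 49 of 60 cells with 3 or more. Of all 113 young and 93 old IEL with 2 or more cytokine UMIs, 15 and 23 were left out because no productive TRB chain was found. A *Trdc* UMI removed 4 and 1 more, a *Cd8b1* UMI 2 and 5, and a *Foxp3* UMI 2 and 0.

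*Il17a* (chromosome 1, 20730905 to 20734496, plus strand) and *Il22* (chromosome 10, 118204942 to 118210047, plus strand) lie on different chromosomes, whereas *Il17f* neighbours *Il17a* on chromosome 1, from 20777146 to 20790617. In young IEL, 44 cells (48.9%) held *Il17a* only, 11 (12.2%) *Il22* only and 35 (38.9%) both. In old IEL there were 18 (28.1%), 18 (28.1%) and 28 (43.8%). Any *Il17a* UMI was found in 87.8% of young (79.2 to 93.7) and 71.9% of old Th17-type cells (59.2 to 82.4), and in 81.1% and 65.6% after thinning. *Il22* showed the opposite order, with 71.9% (59.2 to 82.4) in the old against 51.1% (40.3 to 61.8) in the young cells, or 60.9% against 38.9% after thinning. The level of *Il22* did not follow its share of cells: it was 24.2 UMIs per 10000 UMIs in the young cells and 18.7 in the old. No order between the ages was therefore read from *Il22*.

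Transcripts were spread unevenly over the cells. *Il17a* had a median of 31 UMIs per young cell (quartiles 5.25 and 112, highest 385) and 11.5 per old cell (quartiles 0 and 55.25, highest 276). The 10 richest cells held 40.8% of the *Il17a* UMIs in young and 64.4% in old IEL. *Il22* had medians of 1 and 2.5 UMIs, with 274 and 86 in the richest cell, and the 10 richest cells held 80.8% of its UMIs in young and 66.1% in old IEL. A few cells thus set much of each summed level, more so for *Il22* in young and for *Il17a* in old IEL.

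**Figure D2:**
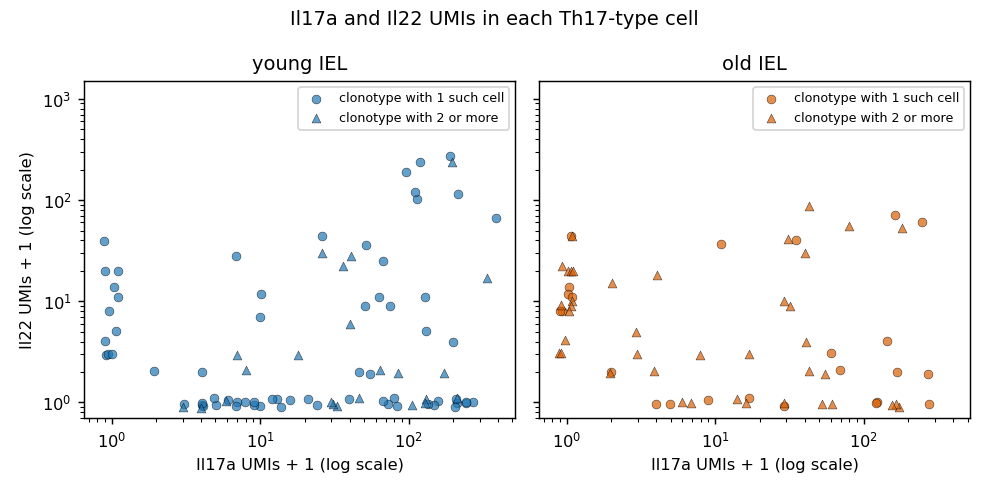
Il17a UMIs plus 1 (x axis) against Il22 UMIs plus 1 (y axis), both on log scales, in each Th17-type cell of young IEL (left, 90 cells) and old IEL (right, 64 cells), with triangles for cells whose clonotype held 2 or more such cells. The 11 young and 18 old cells with Il22 only form the column at the left edge, and the cells with Il17a only, 44 and 18, form the row at the bottom.

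The cells with *Il22* only had less *Maf* than the cells with *Il17a* only and the cells with both cytokines, while other Th17 genes did not share 1 order. *Il1r1*, the receptor of IL-1β, was found in 2 of 11 such cells in young and 1 of 18 in old IEL, against 19 of 35 and 14 of 28 of the cells with both cytokines. *Maf*, the gene of the transcription factor c-Maf, lay at 0.956 (0.477 to 1.71) against 3.16 UMIs per 10000 (2.53 to 3.89) in young and at 0.684 (0.295 to 1.35) against 2.19 (1.58 to 2.94) in old IEL. The cells with *Il17a* only had *Il1r1* in 17 of 44 young and 5 of 18 old cells, and *Maf* at 3.61 and 2.57. *Lag3* was found in 0 of the 11 young cells with *Il22* only, in 23 of 44 with *Il17a* only and in 15 of 35 with both. *Il17f* and *Ccl20* had 0 UMIs in the cells with *Il22* only at both ages, and likewise in the old cells with *Il17a* only. *Ccr6* was found in 7 of 11 young and 3 of 18 old cells with *Il22* only, in 12 of 44 and 9 of 18 with *Il17a* only, and in 13 of 35 and 9 of 28 with both. In old IEL these cells had *Ccl5*, a chemokine of cytotoxic T cells, at 58.7 UMIs per 10000 (54.4 to 63.2), against 10.8 (9.42 to 12.4) in the cells with both cytokines, and in young IEL the order was the other way, with 8.17 (6.60 to 10.0) against 17.8 (16.3 to 19.5). The cells with *Il17a* only had it at 53.5 in young and 14.4 in old IEL. In young IEL 1 cell held 21.5% of the *Ccl5* UMIs of all Th17-type cells. Those with *Cd4* and without *Cd8a* held 339 of these 2355 UMIs. Of the 18 old cells with *Il22* only, 7 belonged to old clonotype 1 and held 429 of their 686 *Ccl5* UMIs. Without that clonotype, a comparison chosen after seeing the data, *Ccl5* lay at 29.9 (26.3 to 33.8) in the 11 remaining cells, of which 1 held 46.7% of the UMIs, and at 1.83 (1.22 to 2.65) in the 22 remaining cells with both cytokines. *Maf* then lay at 0.465 against 2.29. The median depth in old IEL was 4732 UMIs for the cells with *Il22* only, 5796.5 with *Il17a* only and 5299 with both, and 6221, 5743.5 and 5862 in young IEL, and the shares of cells above were not thinned.

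Other markers of Th17 cells were checked against the label. In young and old Th17-type cells, *Tmem176b*, an intracellular cation channel gene, was detected in 65.6% and 81.2%, and *Il18r1*, a subunit of the IL-18 receptor, in 63.3% and 39.1%. *Il23r*, the receptor subunit specific for IL-23, was found in 57.8% and 34.4%, and *Ccr6*, the receptor for CCL20, in 35.6% and 32.8%. These markers were not part of the selection and were present at both ages. Markers of other cells the sort could hold were low or absent, apart from *Cst3*. All 11 epithelial genes together had 1 UMI in young (*Reg3b*, 0.0138 per 10000) and 0 in old Th17-type cells. Of 5 myeloid genes only *Cst3* was above 0 (2.02 and 1.75), with *Lyz2*, *C1qa*, *Csf1r* and *Itgam* at 0. *Cst3* was found in 63 young and 42 old cells. In those with *Cd4* and without *Cd8a* its log2 ratios to other CD4+ IEL were 0.87 and 0.69. The 6 B cell genes summed to 0.594 and 0.473, with *Ighm* the gene with the most UMIs (0.428 and 0.237) and *Ms4a1* at 0.

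γδ and innate-like T cell markers were also examined, since such cells can make IL-17A. Besides *Trdc*, which the rule set to 0, *Sox13* and *Cd163l1* had 0 UMIs at both ages. The γ constant gene *Tcrg-C1* reached 0.953 UMIs per 10000 in young and 1.66 in old Th17-type cells, and the 7 γδ genes together 1.67 and 2.34. Compared with other CD4+ IEL, the Th17-type cells with *Cd4* and without *Cd8a* had *Tcrg-C1* at 0.897 (0.668 to 1.18) against 0.127 in young and 2.03 (1.52 to 2.64) against 0.274 in old IEL, log2 ratios of 2.13 and 2.51, whereas *Tcrg-C2* had log2 ratios of -0.74 and -2.11. *Blk*, a kinase of IL-17-producing γδ T cells, was found in 10 young Th17-type cells and 4 old ones. In those with *Cd4* and without *Cd8a* it was found in 9 of 70 and 4 of 39 cells, and its level was at least 33.6-fold and 10.1-fold higher than in other CD4+ IEL, which had 0 UMIs and were set to a floor of 3 UMIs over the group. The 6 innate-like genes summed to 0.580 and 0.520, led by *Zbtb16* (0.235 and 0.166), with *Slc4a4* at 0. No receptor of the invariant NKT type (TRAV11 with TRAJ18) or MAIT type (TRAV1 with TRAJ33) was found among the 83 young and 61 old cells with a productive TRA chain. The part of γδ or innate-like cells in the results was not tested beyond these values.

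*Cd4* was found in 83 of 90 young (92.2%) and 48 of 64 old Th17-type cells, but in 47.8% and 53.1% after thinning, and its level was alike at 2.92 and 3.00 UMIs per 10000. The lower unthinned share in old IEL was thus not seen at equal depth. *Cd8a*, which forms the CD8αα homodimer of IEL when *Cd8b1* is absent, was found in 14.4% of young (13 of 90, 7.92 to 23.4) and 17.2% of old cells (11 of 64, 8.90 to 28.7). Other CD4+ IEL carried it far more often, and with a wide gap between the ages. Among gated cells with *Cd4*, *Cd8a* was detected in 15.7% of the Th17-type cells against 42.7% of the remaining cells of young IEL, and in 18.8% (8.95 to 32.6) against 77.6% (75.6 to 79.6) for old IEL. After thinning these were 9.64% against 35.9% and 10.4% against 70.6%. Naive-like SP cells with *Cd4*, which should lack CD8, had *Cd8a* in 4.93% of young (median 5612 UMIs) and 7.33% of old cells (median 5383). In naive-like young IEL with *Cd4* the share was 10.1% (16 of 158, 5.90 to 15.9, median 5980.5 UMIs), an interval that overlapped that of the young Th17-type cells. The 13 young Th17-type cells with *Cd8a* held 88 of its UMIs, of which 1 cell held 44.3%. Old IEL held only 11 such naive-like cells, 0 of them with *Cd8a*, which allows a share of up to 27.3%. Of the 11 old Th17-type cells with *Cd8a*, 9 belonged to old clonotype 1, and without that clonotype the share was 4.08% (2 of 49).

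The Th17-type cells of old IEL fell into far fewer clonotypes than those of young IEL. The 90 young cells made up 78 clonotypes, of which 67 held a single Th17-type cell, and the 64 old cells made up 31, of which 24 did. Cells whose clonotype held 2 or more Th17-type cells were 25.6% in young (23 of 90, 16.9 to 35.8) and 62.5% in old IEL (40 of 64, 49.5 to 74.3). The 3 largest clonotypes together held 7 young and 32 old cells. Other CD4+ IEL without *Cd8a* were spread likewise by age, with 38.3% of 577 young cells (34.3 to 42.4) and 82.2% of 382 old cells (78.0 to 85.9) in clonotypes of 2 or more. Shares of this kind rise with the number of cells sampled. The Th17-type cells with *Cd4* and without *Cd8a* had 22.9% of 70 young and 53.8% of 39 old cells in such clonotypes. By the size of the clonotype in the whole pool, 45 of 90 young Th17-type cells against 272 of 577 others (47.1%) belonged to clonotypes of 2 or more cells, and 70.3% (57.6 to 81.1) against 85.6% (81.7 to 89.0) in old IEL.

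**Figure D3:**
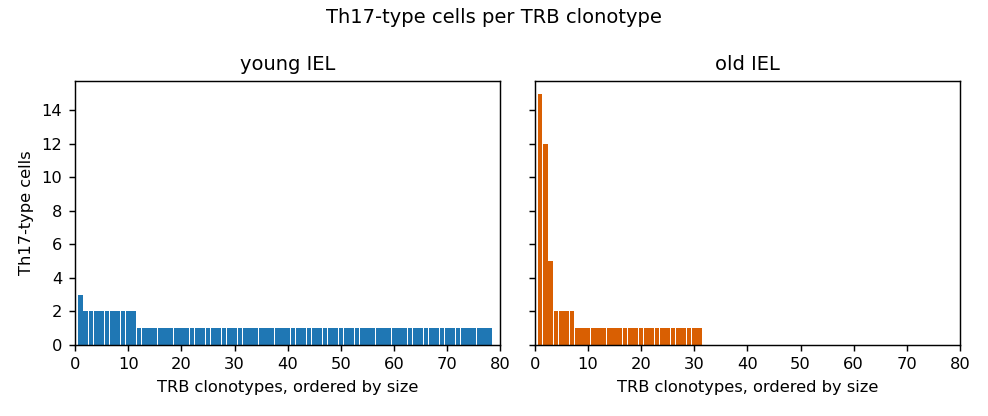
Number of Th17-type cells (y axis) in each TRB clonotype, ordered from the largest to the smallest (x axis), in young IEL (left, 78 clonotypes) and old IEL (right, 31 clonotypes). The largest young clonotype holds 3 cells, and the 3 largest old clonotypes hold 15, 12 and 5.

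TRBV31 was the most frequent V gene among the young clonotypes, in 14 of 78, followed by TRBV19 in 11. In old IEL, TRBV5 was found in 6 of 31 clonotypes and TRBV1 and TRBV31 in 4 each. The TRB CDR3 had a median of 42 bases in Th17-type and other cells at both ages, with medians of 10 unmatched bases in the Th17-type cells and 9 in the others. Chains were rarely shared between pools. A TRBV12-1 chain of 1 young Th17-type cell was found in 2 old IEL cells, a chain of 1 old Th17-type cell in 1 young IEL cell, and a TRBV19 chain of 1 young Th17-type cell in 2 young SP cells. For the old Th17-type cells, 2 chains recurred in old SP, 1 cell each, including that of old clonotype 1. A pair of TRB chains was found in 4.44% of young (4 of 90) and 21.9% of old Th17-type cells (14 of 64), against 6.81% and 2.62% of all IEL with a TRB chain. In old IEL, 12 of these 14 cells were old clonotype 2.

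The largest clonotypes were not all of 1 kind. Old clonotype 3 held *Il17a* in all of its 5 cells, the only cells in old IEL with that chain, with 411 *Il17a* and 0 *Il22* UMIs in sum. The TRBV17 chain of old clonotype 2 was found in 42 old IEL, of which 14 (33.3%, 19.6 to 49.5) were Th17-type and 25 were other gated cells. The TRBV2 chain of old clonotype 1 was found in 811 old IEL, of which 15 (1.85%, 1.04 to 3.03) were Th17-type and 766 were other gated cells. The 15 cells had 120 *Il17a* and 188 *Il22* UMIs in sum, with 2 to 128 cytokine UMIs per cell and a median of 8. The cytokine genes thus separated cells that carried the same receptor, and genes that the rule did not use could be compared between them.

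Within the TRBV2 clonotype, *Tmem176b* was found in 7 of 15 Th17-type cells and 15 of 766 others, at 3.84 (2.64 to 5.39) against 0.0889 UMIs per 10000 (0.0623 to 0.123). *Il23r* was found in 4 of 15 against 4 of 766 cells, at 1.05 (0.478 to 1.99) against 0.00988 (0.00269 to 0.0253). Both genes were thus higher in the cytokine-positive cells, with intervals apart, at medians of 4698 and 4820.5 UMIs per cell. *Ccl5* was lower in them, at 75.7 (70.0 to 81.7) against 282.7 (281.1 to 284.4), as was *Tbx21*, the gene of the Th1 transcription factor T-bet, found in 1 of 15 against 361 of 766 cells. *Cd8a* was found in 9 of 15 and 522 of 766 cells. *Gzma*, the gene of the serine protease granzyme A, was high in both, at 126 (118.6 to 133.7) and 188.8 (187.5 to 190.2).

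Within the TRBV17 chain the contrast was smaller for *Il23r* and *Tmem176b*. *Il23r* was found in 5 of 14 Th17-type and 4 of 25 other cells, at 1.19 (0.542 to 2.25) against 0.534 UMIs per 10000 (0.196 to 1.16), with overlapping intervals. *Tmem176b* was present in both, at 5.53 (3.99 to 7.48) and 4.36 (3.23 to 5.77), with overlapping intervals. *Gzmb*, the gene of granzyme B, was lower in the Th17-type cells, at 4.35 (2.99 to 6.10) against 30.9 (27.7 to 34.3), and *Ccl5* likewise, at 19.8 (16.7 to 23.2) against 87.1 (81.7 to 92.7). *Gzma* lay at 88.0 and 81.0, with overlapping intervals. *Ctla4*, an inhibitory receptor, was higher in the Th17-type cells of both clonotypes, at 13.7 against 6.94 for TRBV2 and 23.8 against 12.8 for TRBV17.

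**Figure D4:**
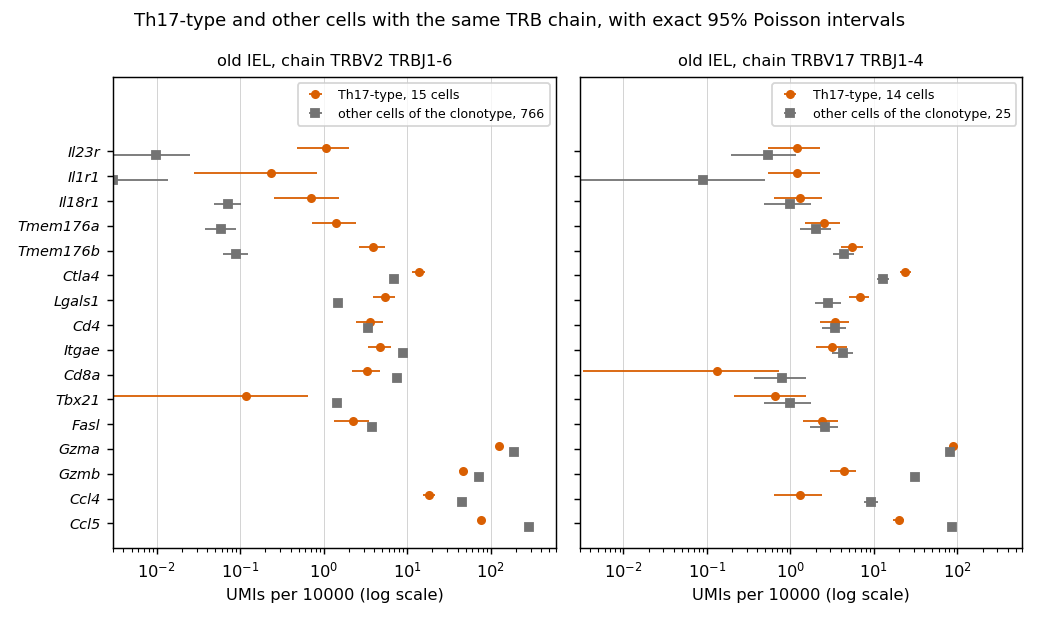
Summed levels of genes of Th17, resident and cytotoxic T cells (y axis) in UMIs per 10000 (x axis, log scale, levels of 0 at the left edge) in Th17-type cells (circles) and other gated cells (squares) of old IEL that carry the same TRB chain, TRBV2 with TRBJ1-6 (left, 15 and 766 cells) or TRBV17 with TRBJ1-4 (right, 14 and 25 cells). Bars are exact 95% Poisson intervals, and Tmem176b lies at 3.84 against 0.0889 on the left and at 5.53 against 4.36 on the right.

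To see what set the Th17-type cells apart from other CD4+ IEL, the 70 young and 39 old Th17-type cells with *Cd4* and without *Cd8a* were compared with the 577 young and 382 old cells of the same gate with 0 or 1 cytokine UMI. Their median depths were 5897 and 6092 UMIs against 6040 and 4773.5. Ratios were taken after adding 0.1 UMIs per 10000 to both levels, and genes with a mean level of 0.2 or more were kept. In young IEL, 184 of 6028 genes (3.05%) were 2-fold or more higher and 118 (1.96%) lower in the Th17-type cells, with a median log2 ratio of 0.037. In old IEL these were 223 of 6155 (3.62%) and 205 (3.33%), with a median of 0.016. Of 5641 genes kept at both ages, 99 were higher and 48 lower at both. A clonotype carrying the TRBV2 chain made up 188 of the 382 other cells in old IEL.

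Transcription factors of the Th17 programme were mostly close between the groups. *Rora*, a nuclear receptor of Th17 cells, had log2 ratios of 1.20 in young and 0.46 in old IEL, *Maf* 0.53 and 0.66, and *Ahr*, the aryl hydrocarbon receptor needed for IL-22, 0.47 and 0.70. *Rora*, *Batf* and *Irf4*, the latter a pair that act together in Th17 differentiation, were past 2-fold in young IEL and within 2-fold in old IEL, although *Irf4* reached 1.12 in old IEL with each clonotype counted once. None of the 9 factors was 2-fold lower at either age. The list's median was 0.65 in young and 0.66 in old IEL.

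Receptors and surface genes of Th17 cells were 2-fold or more higher for 6 of 12 genes kept in young and 8 of 12 in old IEL, with medians of 1.53 and 1.93. *Il23r* lay at 1.93 (1.59 to 2.33) against 0.0806 (0.0555 to 0.113) in young and 1.13 (0.760 to 1.61) against 0.109 (0.0686 to 0.166) in old IEL. *Il1r1*, *Ccr6* and *Il17re*, a receptor subunit of IL-17C, also passed 2-fold at both ages. *Tmem176a* and *Tmem176b* neighbour each other on chromosome 6, on opposite strands with overlapping ends, so that reads in the overlap could be assigned to either unless strand was used. *Il18r1* was 2-fold higher only in old IEL, with log2 ratios of 0.72 in young and 1.40 in old IEL, or 0.60 in old IEL with each clonotype counted once, and the difference between the ages was not tested. *Il7r*, the receptor of the survival cytokine IL-7, was lower at both ages, with log2 ratios of -0.69 and -0.76, or -0.85 and -1.36 with each clonotype counted once.

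Of the cytokine genes outside the rule, 3 of 7 kept were 2-fold or more higher in young IEL (*Il17f*, *Ccl20* and *Areg*) and 2 of 5 in old IEL (*Il17f* and *Areg*), with medians of 0.74 and 0.22. *Tnf*, *Ltb* and *Il21* were within 2-fold at both ages, with *Tnf* at log2 ratios of 0.14 and -0.45, and *Il10* was within 2-fold in young IEL (0.74). *Il17f* had 142 UMIs in the young Th17-type cells and 0 in the 577 others, at least 340.9-fold higher by the same floor, and 2.81 against 0.00498 UMIs per 10000 in old IEL. It was found in 15 of 70 young and 5 of 39 old cells, and among all 64 old Th17-type cells 1 cell held 78.7% of its UMIs. *Areg*, the gene of the epithelial growth factor amphiregulin, lay at 3.59 against 0.437 in young and 5.74 against 0.607 in old IEL, in 25 and 13 cells. *Ccl20*, the chemokine ligand of CCR6, was at least 417.7-fold higher in young IEL, with 174 UMIs against 0. In old IEL it was at least 15.1-fold higher, with 6 UMIs against 0, but too low in mean level to be kept. *Cxcl3*, a neutrophil chemokine, was at least 364.9-fold higher in young IEL and had 4.09 against 0.0746 UMIs per 10000 in old IEL, where 1 cell held 83.9% of the UMIs of all Th17-type cells. *Csf2*, the gene of GM-CSF, was at or near 0 in all groups, with 1 UMI in the young and 0 in the old Th17-type cells.

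Beyond the lists, the genes with the largest ratios at both ages included *Rbm24*, an RNA-binding protein, *Ablim3*, an actin-binding protein, *Ltb4r1*, the receptor of leukotriene B4, *Nrgn*, a calmodulin-binding protein, *Ppp1r14c*, an inhibitor of protein phosphatase 1, and *Cpe*, carboxypeptidase E. *Rbm24* lay at 1.04 against 0.0122 UMIs per 10000 in young and 1.20 against 0.0149 in old IEL, and *Ltb4r1* at 1.05 against 0.0195 and 0.826 against 0.0299. The log2 ratios of *Nrgn* were 3.10 and 4.69, those of *Cpe* 3.62 and 2.89, those of *Ablim3* 3.25 and 3.52 and those of *Ppp1r14c* 3.00 and 3.30. These transcripts were detected in part of the cells, for example *Cpe* in 25 of 70 young and 11 of 39 old cells. *Nrgn* was found in 11 of 70 and 8 of 39 cells, and 1 old cell held 47.9% of its UMIs.

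**Figure D5:**
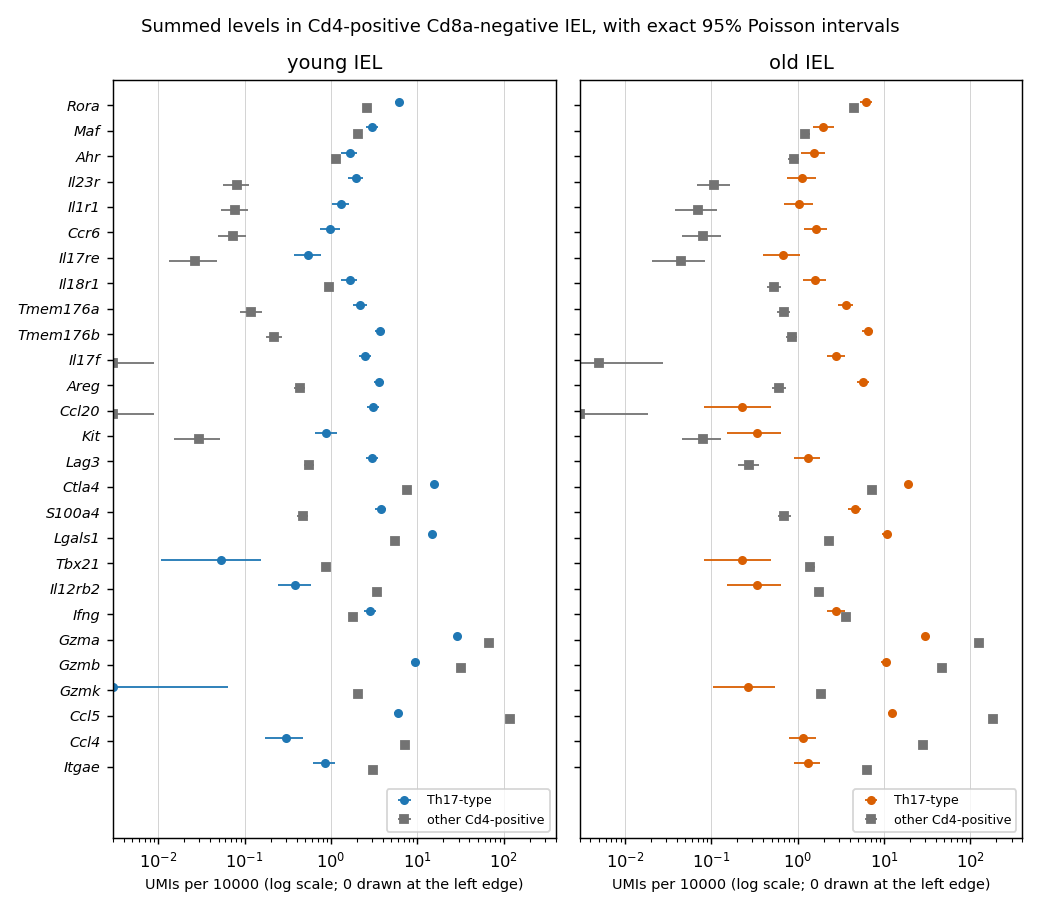
Summed levels of genes of the lists (y axis) in UMIs per 10000 (x axis, log scale) in Th17-type cells (circles) and other CD4-positive cells (squares) of the same gate, without Cd8a, in young IEL (left, 70 and 577 cells) and old IEL (right, 39 and 382 cells), with exact 95% Poisson intervals. From Rora to Lgals1 the circles lie to the right of the squares at both ages, and from Gzma to Itgae they lie to the left.

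Cytotoxic genes were lower in the Th17-type cells at both ages, with 8 of 9 genes kept past 2-fold in young (median -1.77) and 10 of 11 in old IEL (median -2.15), and none was higher. *Ccl5* lay at 5.96 (5.34 to 6.63) against 118.6 (117.6 to 119.7) in young and 12.5 (11.2 to 13.9) against 181.6 (179.7 to 183.5) in old IEL. *Gzmk*, the gene of granzyme K, had 0 UMIs in the 70 young cells, at least 39.3-fold lower than in the others, and 0.263 against 1.85 in old IEL. *Ccl4*, a chemokine, lay at 0.299 against 7.10 and 1.16 against 27.9. *Gzma* and *Gzmb* remained detectable, at 28.4 and 9.32 in young and 29.8 and 10.4 in old Th17-type cells. Since a large clonotype can set such sums, each clonotype was also counted once. The log2 ratio of *Gzmb* then was -0.70 in young and -0.27 in old IEL, in place of -1.77 and -2.15, and 5 of the 9 cytotoxic genes in young and 8 of the 11 in old IEL were past 2-fold, whereas that of *Ccl5* was -3.44 and -3.00.

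Among Th1 genes, *Tbx21* (log2 ratios -2.69 and -2.21) and *Il12rb2*, a subunit of the IL-12 receptor (-2.86 and -2.08), were past 2-fold lower at both ages. *Cxcr3*, a chemokine receptor of Th1 cells, was past 2-fold lower in young IEL. None of the 7 Th1 genes kept was 2-fold higher, with medians of -1.04 and -0.67. *Ifng*, the gene of interferon γ, was within 2-fold, at 2.85 against 1.81 in young and 2.78 against 3.63 in old IEL, with log2 ratios of 1.12 and 0.18 when each clonotype was counted once, in place of 0.62 and -0.37. *Itgae* and *Itga1*, integrin subunits of tissue-resident lymphocytes that bind E-cadherin and collagen, were lower at both ages (log2 ratios -1.73 and -2.20, and -3.03 and -2.64). *Cxcr6*, a homing receptor of tissue-resident T cells, was higher (1.17 and 1.14), and *Ccr9*, the gut-homing receptor for CCL25, was within 2-fold (0.71 and 0.61, the latter 1.42 with each clonotype counted once). Residency genes thus did not share a direction: of 13 kept, 1 was higher and 3 lower at each age, with medians of 0.06 and -0.17.

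*Ctla4* lay at 15.5 against 7.66 UMIs per 10000 in young and 19.0 against 7.27 in old IEL. *Lag3*, an inhibitory receptor that binds MHC class II, had log2 ratios of 2.23 and 1.92, and *Kit*, the stem cell factor receptor, 2.92 and 1.29, the latter 0.65 with each clonotype counted once. *Pdcd1*, the gene of PD-1, had a log2 ratio of 0.01 in young and 2.07 in old IEL, and the difference was not tested. Genes of effector memory cells were also higher, with *S100a4* at 3.75 against 0.474 and 4.58 against 0.702 and *Lgals1* at 14.6 against 5.54 and 10.7 against 2.30. In all, 5 of the 10 genes of this list were past 2-fold in young and 4 of 10 in old IEL, with medians of 0.95 and 0.89. With each clonotype counted once 5 of 10 and 2 of 10 were, as *S100a6* then had a log2 ratio of 0.84 and *Anxa2* of 0.42 in old IEL. Genes of naive T cells were 2-fold lower for 5 of 7 in young IEL, such as *Ccr7* at 0.0352 against 2.09, and for 0 of 5 in old IEL, where the other cells had *Ccr7* at 0.423. With each clonotype counted once the naive genes were 2-fold lower for 7 of 7 in young and 3 of 5 in old IEL, with log2 ratios of -2.69 for *Ccr7* and -2.54 for *Lef1* in old IEL, so the contrast between the ages was not seen under that setting. Cycling genes were past 2-fold higher for 4 of 7 in young and 2 of 7 in old IEL, with medians of 1.09 and 0.67.

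Old and young Th17-type cells were then compared with each other over all 90 and 64 cells. Of 6084 genes kept, 59 (0.970%) were 2-fold or more higher and 91 (1.50%) lower in old cells, with a median log2 ratio of -0.000. None of the 9 Th17 transcription factors and none of the 12 receptors kept passed 2-fold, with medians of -0.16 and 0.11. *Il23r* (1.74 against 1.06) and *Maf* (3.01 against 1.87) were lower, and *Tmem176b* (3.48 against 5.89) and *Tmem176a* (1.98 against 3.45) higher in old cells, with intervals apart but within 2-fold. With each clonotype counted once *Tmem176a* reached a log2 ratio of 1.11. In other CD4+ IEL *Tmem176b* was also higher in old cells, with a log2 ratio of 1.58 against 0.74 in the Th17-type cells.

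Of the 7 cytokine genes kept, *Il10*, *Ccl20* and *Il21* were 2-fold or more lower in old Th17-type cells. *Il10*, the gene of the inhibitory cytokine IL-10, lay at 0.0946 (0.0258 to 0.242) in the old against 0.912 (0.705 to 1.16) in the young cells, a log2 ratio of -2.38, with 66 UMIs in 10 young cells and 4 UMIs in 4 old cells. The shares of cells, 11.1% and 6.25%, were closer than the levels. In other CD4+ IEL the log2 ratio of *Il10* was -1.57. *Ccl20* lay at 2.51 and 0.946, in 16 young and 3 old cells, and 1 old cell held 85.0% of its UMIs there. *Il21*, a cytokine of helper cells that acts on B cells, lay at 0.649 and 0.237, with 10 UMIs in 2 old cells. With each clonotype counted once the log2 ratio of *Ccl20* was -0.31, in place of -1.32, and that of *Il17f* -1.47, in place of -0.28. *Il17f* was within 2-fold in sum (2.18 and 1.77) but was found in 19 young and 5 old cells.

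*Ccl4* had the largest ratio among the named genes higher in old cells, at 4.57 (3.94 to 5.26) against 0.428 (0.291 to 0.608), a log2 ratio of 3.14. Old clonotype 1 carried 157 of its 193 UMIs, and without that clonotype the log2 ratio was 1.15. *Fasl*, the gene of Fas ligand, lay at 1.47 against 0.359 (log2 ratio 1.77, and 0.68 with each clonotype counted once). *Cd6*, a modulator of T cell receptor signalling, lay at 5.73 against 2.76 (log2 ratio 1.02, and 0.81 with each clonotype counted once) and *Pdcd1* at 0.710 against 0.235, where 1 of the 10 old cells with *Pdcd1* held 43.3% of its 30 UMIs. For these the other CD4+ IEL had log2 ratios of old over young of 1.96 (*Ccl4*), 1.37 (*Fasl*), 0.85 (*Cd6*) and -0.33 (*Pdcd1*). *Cep290*, a centrosomal protein, and *Slc15a3*, a lysosomal peptide transporter, had log2 ratios of 2.10 and 1.87 from 29 and 24 UMIs in old cells. Other CD4+ IEL had *Cep290* at 0.527 in old against 0.0586 in young cells and *Slc15a3* at 0.0448 against 0.00977. Of the 12 old Th17-type cells with *Slc15a3*, 7 carried a pair of TRB chains. *Stmn2* (1.90) rested on 3 cells at each age.

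Among the genes lower in old cells, *Ccr2*, a chemokine receptor for CCL2, lay at 0.426 against 1.93, in 10 of 64 old and 47 of 90 young cells. *Ccr2* was also higher in Th17-type cells with *Cd4* and without *Cd8a* than in other CD4+ IEL. It lay at 2.20 against 0.168 in young and 0.375 against 0.0647 in old IEL. *Lag3* lay at 1.06 against 2.75 (log2 ratio -1.29, and -0.97 with each clonotype counted once) and *Kit* at 0.331 against 0.801. Cell cycle genes were lower as well, with *Birc5* at 0.662 against 2.02, *Ube2c* at 0.331 against 1.48 and *Cenpa* at 0.355 against 1.69. *Birc5* rested on 4 old and 14 young cells, *Ube2c* on 2 and 14, where 1 old cell held 92.9% of the UMIs, and *Cenpa* on 11 and 37. Of the 7 cycling genes *Birc5* alone passed 2-fold, with a median of -0.70, and their sum was 22.6 UMIs per 10000 in young and 13.8 in old cells. The log2 ratio of *Birc5* in other CD4+ IEL was -1.25.

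*Tyrobp* and *Fcer1g*, signalling adaptors of natural IEL and NK cells, were also much lower in old cells. *Tyrobp* had 66 UMIs in 9 young cells and 0 in old cells, at least 12.8-fold lower. *Fcer1g* had 78 UMIs in 5 young cells and 2 in old cells. Of these young cells, 6 of 9 and 4 of 5 also had *Cd8a*, and among Th17-type cells with *Cd4* and without *Cd8a* the log2 ratios were -0.61 and -0.23, in place of -3.34 and -3.00. Without the cells with a pair of TRB chains they were -1.87 and -1.27. The 12 natural IEL genes other than *Cd8a* together reached 7.79 UMIs per 10000 in young Th17-type cells, all 12 above 0 and *Lag3* the gene with the most UMIs (199 of 564), and 4.52 in old cells, with *Tyrobp*, *Klra5*, *Gm156* and *Klrk1* at 0 and *Cd160* the gene with the most UMIs (115 of 191). Of the 7 genes of this list kept, 4 were 2-fold lower in old cells and none higher, with a median of -1.06. *Cd7*, a surface glycoprotein of T and NK cells, lay at 5.17 in young and 1.23 in old cells, and its 94 UMIs in 1 young cell made up 25.1% of the young total. The part of natural IEL in these differences was not tested beyond these values.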

How the data were processed

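T cells of young and old IEL and SP were profiled on the 10x Genomics platform, with gene expression and T cell receptor libraries of pools marked by hashtag antibodies. Per the submitters' processing notes, Cell Ranger 7.0.1 and mm10 were used, and the authors deposited the UMI counts per gene and cell, whole numbers without normalization, with the assembled receptor contigs. Gene positions came from the GENCODE M21 annotation of GRCm38 (mm10), as did the germline V and J sequences.

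The rule for Th17-type cells was applied to the raw counts. Since each group was 1 pool, UMIs were summed over cells and scaled to 10000, and ratios are log2(level + 0.1), which understates changes of low genes. Genes with a mean level under 0.2 were left out, and 2-fold was the size rule. Naive-like cells had UMIs of *Ccr7* and *Lef1*. Named genes are those of 23 lists (206 genes), plus the 10 per direction with the largest ratios (against other CD4+ IEL, by the smaller of the ratios of both ages) among genes with a level of 0.5 or more, 95% Poisson intervals apart and the same sign with each clonotype counted once; TCR, immunoglobulin, mitochondrial and ribosomal genes and those of the rule were not ranked. Members and lists were chosen with earlier results of these data known. No authors' cell annotation was used. Some genes of the lists and 1 receptor sequence are not reported here. Scrublet marked 0 of 4348 young and 4 of 5811 old IEL as doublets and was taken not to have worked, so cells with a pair of TRB chains were left out as an alternative. Ratio calculations were tested on simulated data. Python 3.11.15, numpy 2.4.6, scipy 1.17.1, pandas 2.3.3, scanpy 1.11.5 and matplotlib 3.10.9 were used. Alternatives were thresholds of 1 and 3 cytokine UMIs, thinning, denominators, pseudocount, filter, means over cells or clonotypes, clonotype definition, and leaving out cells with *Cd8a*, with naive genes, with a pair of TRB chains or of the largest clonotype.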

Additional observations from a re-analysis of the deposited data

Results flagged for a closer look

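Cytokine-positive IEL outside the rule were found where no productive TRB chain was assembled, 15 in young and 23 in old IEL. *Cd4* was found in 11 of the 15 and 22 of the 23 cells, *Trac*, the constant region of the TCR α chain, in 12 and 20, and *Trdc* in 1 and 0. *Tmem176b* was detected in 7 and 11 of them. Their median of *Il17a* and *Il22* UMIs was 29 in young and 6 in old IEL.

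For 3 genes of the lists the Th17-type cells differed from other CD4+ IEL in opposite directions at the 2 ages, with Poisson intervals apart at both. *Tnfrsf18*, the costimulatory receptor GITR, had a log2 ratio of -0.55 in young and 0.77 in old IEL, and with each clonotype counted once the old value was -0.15. *Fos*, an immediate early gene, had 0.20 and -0.31, and *Jund*, its partner in the AP-1 factor, 0.33 and -0.21. The differences between the ages were not tested.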

How the results depend on the processing

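With 1 pool per group no value had a replicate check, and no paired analysis was possible because each group was 1 pool. The share of Th17-type cells moved to 4.02% in young IEL with 1 UMI or more, and to 6.43% in young and 2.54% in old IEL when taken of the cells with *Cd4*. The old share with *Cd8a* was 4.08% without the largest clonotype. Counts of genes past 2-fold depended on the pseudocount and the filter. Between old and young cells, where 59 were higher and 91 lower, a pseudocount of 0.5 gave 14 and 19, a minimum level of 0.5 gave 21 and 26 of 3353, and no minimum gave 142 and 198 of 12623. Means over clonotypes gave 127 and 164, cells with *Cd4* and without *Cd8a* 138 and 160, a mean over cells 98 higher, and leaving out the cells with the TRBV2 chain of old clonotype 1 or the TRBV17 chain of old clonotype 2 94 higher, an alternative chosen after seeing the data. Against other CD4+ IEL, a pseudocount of 0.5 gave 72 higher and 34 lower in young and 86 and 41 in old IEL, and a minimum level of 0.5 gave 118 and 62, and 123 and 84. In old IEL the number lower was 132 with all Th17-type cells, 318 with means over clonotypes and 314 without cells that had UMIs of naive T cell genes. The signs of the ratios ranked as largest were in part fixed by how they were chosen. Counting each clonotype once turned the sign of some genes of the lists in old IEL, such as *Tcf7* from 0.11 to -1.30 and *Ccr4* from 0.80 to -0.81. The cause of these changes was not tested, except that the filter sets how many genes are counted. The doublet caller gave no usable alternative. At these depths a gene near 0.1 UMIs per 10000 rested on fewer than 10 UMIs in either age.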

Other observations

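Other helper programmes gave few genes past 2-fold. Of 5 regulatory T cell genes kept, *Ctla4* at both ages and *Il2ra*, a subunit of the IL-2 receptor, in young IEL were higher in the Th17-type cells than in other CD4+ IEL, and *Izumo1r*, a folate receptor homologue of regulatory T cells, was lower at both ages. Of 2 Th2 genes kept, *Ccr4* was higher in young IEL, and of 5 follicular helper genes, *Pdcd1* and *Tox2* were higher in old IEL. Costimulatory and inhibitory genes were higher for 3 of 13 in young (*Ctla4*, *Lag3* and *Havcr2*), with *Cd27* lower, and for 6 of 13 in old IEL, where *Icos*, *Tnfrsf4* and *Pdcd1* joined them. With each clonotype counted once the number in old IEL was 4, as *Tnfrsf4* had a log2 ratio of -0.16, in place of 1.29, and *Icos* 0.99, in place of 1.50.

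Immediate early and stress genes were higher for 2 of 9 in young IEL (*Jun* and *Nr4a1*) and none in old IEL, where *Hspa1b* was lower. The intervals of *Hspa1b* overlapped there, and all old Th17-type cells together held 3 of its UMIs, in 2 cells. The 5 interferon-stimulated genes kept had median log2 ratios of -0.72 in young and -0.31 in old IEL, and none was 2-fold higher in the Th17-type cells. Of the aryl hydrocarbon receptor targets, 1 was kept in young and 2 in old IEL, and none passed 2-fold. *Ahrr*, the repressor of that receptor, lay at 0.379 UMIs per 10000 in old and 0.0967 in young Th17-type cells, a log2 ratio of 1.28, and 0.67 with each clonotype counted once. The T cell receptor complex genes stayed within 2-fold in all 3 comparisons, with medians of 0.07, -0.11 and 0.16.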
